A study of Homo sapiens with 2 samples.

Results

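EPOR, the receptor for the hormone erythropoietin (EPO), and 9 genes of the JAK-STAT-SOCS relay behind it (JAK1, JAK2, TYK2, STAT3, STAT5A, STAT5B, SOCS1, SOCS2 and SOCS3) were described in sorted cells of the esophageal squamous cell carcinoma line KYSE30. These 10 genes, of 60725 in the deposited gene table, were picked by name, with their ratios between the sorted fractions already known, so all values of that contrast given for them are a description. EPOR is a class I cytokine receptor whose chains pair on the cell surface and carry JAK2. Once EPO binds, JAK2 phosphorylates the receptor and the transcription factors STAT5A and STAT5B, which move to the nucleus and switch on genes such as CISH, PIM1 and the SOCS genes, and the SOCS proteins in turn damp the receptor and its kinase. JAK1 and TYK2 serve mainly the interferon receptors and the receptors built on gp130 (IL6ST), which act through STAT2, STAT3 and other STAT factors.

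The cells of both fractions came from cultured KYSE30, an established human line that carried luciferase and GFP. An antibody marked CD44, the hyaluronan receptor, and flow cytometry then separated CD44 high from CD44 low cells. Poly(A) RNA of each kind of cell was sequenced as 1 library, so the differences given here lack a replicate check, and no test across genes was run. The 95% intervals hold counting error and nothing else. All ratios divide CD44 high by CD44 low.

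Expected counts came to 21633236 in the CD44 high and 22859583 in the CD44 low library, and genes of the mitochondrial genome took 7.5% and 14% of them. CD44 itself was at 714 TPM (a level corrected for transcript length and library total) in CD44 high cells and at 278 TPM in CD44 low cells. Of 6 housekeeping genes, 5 were higher beyond counting error, a call that 32.4% of all genes had. The ratios of the 5 ranged from 1.12 for PGK1 to 1.25 for HPRT1. Epithelial markers were present in both libraries, the adhesion genes EPCAM at 324 TPM in CD44 high and 242 TPM in CD44 low cells and CDH1 at 112 and 140 TPM, while the basal keratin KRT5 had 0 and 8 counts. Of 10 measured squamous epithelial markers, 9 were lower beyond counting error, where 31.0% of all genes were, and EPCAM was higher. At least 2-fold lower were 6 of the 10, where 4.21% of all genes were, with KRT13, a keratin of the esophageal surface layers, at 55 counts in CD44 high and 1229 in CD44 low cells. In such bulk RNA, fewer cells of a type and less RNA per cell cannot be told apart.

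The EPOR start region is shown first because EPOR had the largest ratio of the 10 genes. CISH and BCL6, known STAT5 target genes, follow because STAT motifs were found in their windows, which was not so for every target searched. The windows are RefSeq windows of 300 bases (GRCh38.p14, 250 before and 50 after the start), and all 3 genes lie on the minus strand. In the EPOR window (chr19:11384265-11384564) the capitals mark AGATAA, the letters bound by GATA factors, and GGGCGG, those bound by SP1, both read here from the opposite strand as TTATCT and CCGCCC. In the CISH (chr3:50611725-50612024) and BCL6 (chr3:187745419-187745718) windows the capitals mark TTCNNNGAA, the palindrome bound by STAT5 and STAT3.
EPOR: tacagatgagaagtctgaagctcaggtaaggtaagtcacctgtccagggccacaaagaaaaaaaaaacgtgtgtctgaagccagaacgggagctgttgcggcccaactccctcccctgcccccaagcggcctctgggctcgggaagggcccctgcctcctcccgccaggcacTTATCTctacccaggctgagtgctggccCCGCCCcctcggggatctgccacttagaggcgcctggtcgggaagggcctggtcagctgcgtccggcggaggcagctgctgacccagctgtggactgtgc
CISH: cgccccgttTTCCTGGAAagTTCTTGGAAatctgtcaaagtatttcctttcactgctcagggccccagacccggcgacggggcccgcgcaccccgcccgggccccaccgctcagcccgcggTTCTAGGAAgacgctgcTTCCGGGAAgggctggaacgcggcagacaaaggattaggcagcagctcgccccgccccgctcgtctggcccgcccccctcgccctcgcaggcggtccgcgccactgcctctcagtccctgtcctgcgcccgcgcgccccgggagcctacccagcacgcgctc
BCL6: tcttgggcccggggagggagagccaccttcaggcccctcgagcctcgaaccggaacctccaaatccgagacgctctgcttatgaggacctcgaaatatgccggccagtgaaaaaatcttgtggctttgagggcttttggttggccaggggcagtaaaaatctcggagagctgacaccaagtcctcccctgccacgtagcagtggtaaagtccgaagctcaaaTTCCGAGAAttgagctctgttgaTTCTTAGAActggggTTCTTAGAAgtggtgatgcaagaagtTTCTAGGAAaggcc

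Both strands were searched, and no marked matches overlap. The AGATAA match of EPOR began 78 bases and the GGGCGG match 50 bases before the start. Of all 35116 RefSeq windows, 10.3% held AGATAA and 45% held GGGCGG. TTCNNNGAA was present in 7.66% of the windows. CISH held 4 matches, which began 241, 230, 129 and 112 bases before the start. BCL6 held 4 matches in 1 of its 2 windows, beginning 28 and 5 bases before the start and at bases 10 and 36 after it. The windows of PIM1, another STAT5 target, and of PRLR and SH2B3, described below, were also searched. TTCNNNGAA was found in none of them. RefSeq windows were matched for 9 of the 10 genes (all but SOCS2), and TTCNNNGAA was found in none of their windows, those of SOCS3 lying away from the start of the deposited gene. These matches are letters in a window and were not tested as binding sites.

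EPOR was the 1 gene of the 10 that met the 2-fold rule. It had 110 expected counts in CD44 high cells, against 27 in CD44 low cells, or 4.53 TPM against 0.95 TPM. The ratio was 4.08 (95% counting interval 2.66 to 6.47), rank 27 from the top among the 12363 genes that reached 50 counts in either library. EPOR (ENSG00000187266.13, chromosome 19, 11377205 to 11384342, minus strand, GRCh38) passed that count minimum only through the CD44 high library. The 2-fold rule asked for that minimum, for a ratio of 2-fold or more, and for an interval that excluded 1. Of all 12363 genes, 1.24% met it as higher and 4.21% as lower, and 8 of the 10 genes described here had enough counts to be tested by it. The other two, STAT5A and SOCS1, are given below by their values. None of the 8 was at least 2-fold lower, and 7 of the 8 lay within 1.5-fold, as did 84.5% of all genes. Their median log2 ratio was -0.09, beside 0.01 for all genes.

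**Figure D1:**
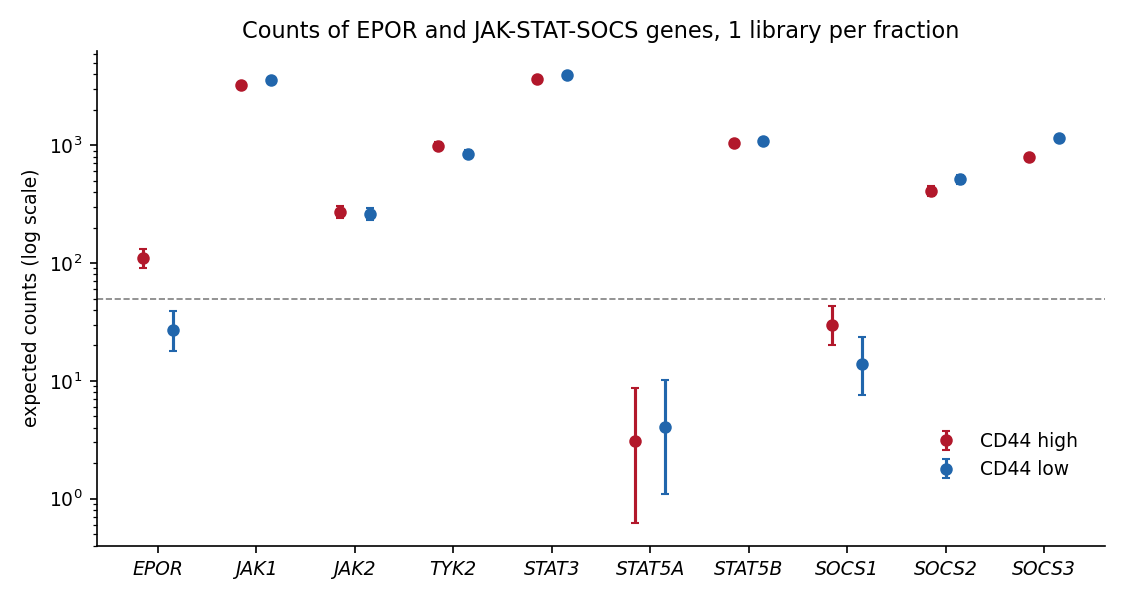
Expected counts (log axis) of the 10 genes in the CD44 high (red, left) and CD44 low (blue, right) library, with 95% Poisson intervals and a dashed line at 50 counts. EPOR, with 110 counts in CD44 high and 27 in CD44 low cells, is the gene whose intervals lie farthest apart, and STAT5A lies near the bottom of the axis in both.

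The counts beyond the interval alone, without the fold, were read in the same way. EPOR and TYK2 were higher beyond counting error, a call that 32.4% of all genes had. JAK1, STAT3, SOCS2 and SOCS3 were lower beyond counting error, a call that 31.0% of all genes had. JAK2 and STAT5B were within it. With counts as high as those of JAK1 and STAT3 a gene passes this limit at a ratio close to 1, so the call says little about size there, and with library totals as the scale both were within counting error.

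**Figure D2:**
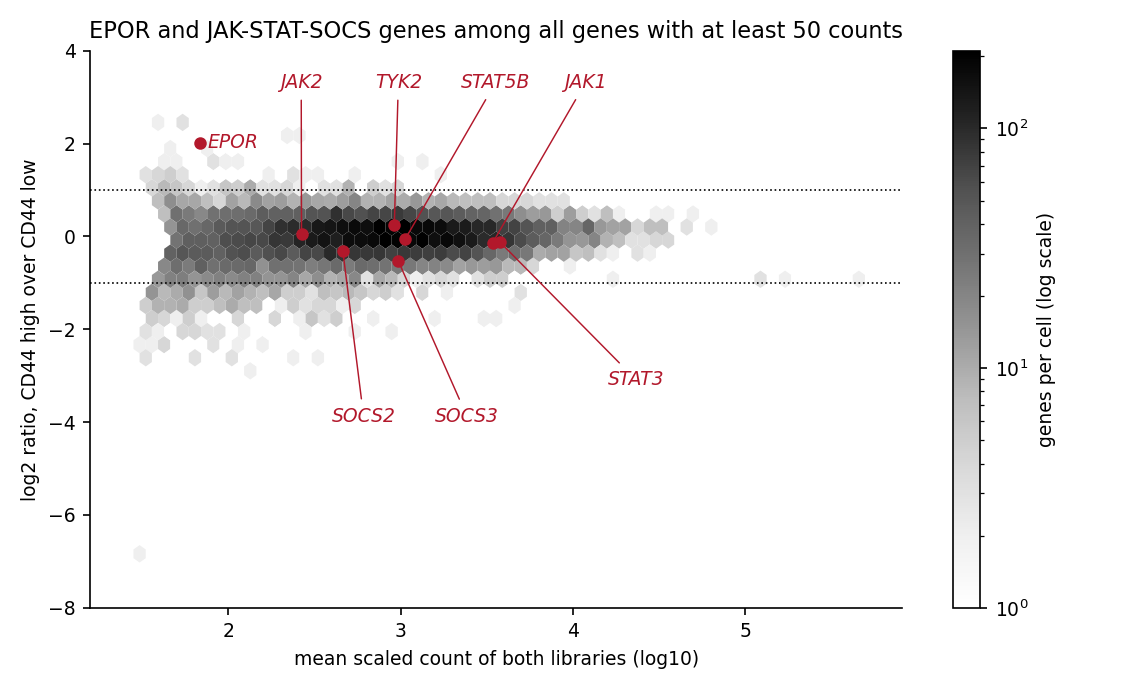
Ratio on the log2 scale, CD44 high over CD44 low, against the mean scaled count of both libraries (log10) for the 12363 genes that reached 50 counts, as shaded cells by number of genes, with the 8 tested genes in red and dotted lines at 2-fold. EPOR lies above the upper dotted line at 2.01, and the other 7 lie inside the shaded bulk.

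The neighbours of EPOR on chromosome 19 had other values. SWSAP1, which works in homologous recombination and ends 253 bases from EPOR, had 59 counts in CD44 high and 55 in CD44 low cells (ratio 1.07, 0.731 to 1.58). PRKCSH, the beta subunit of glucosidase II, lies 50945 bases to the other side and had a ratio of 1.01 (0.974 to 1.06). RGL3, whose annotation overlaps that of EPOR by 2 bases, had 0 and 2 counts. Thus both tested neighbours were within counting error.

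EPOR marks erythroid precursors, and their other genes were near 0. Of 14 erythroid markers, 12 had 0 counts in both libraries, GATA1, ALAS2 and HBB among them. The 14 summed to 1 count in CD44 high and 3 counts in CD44 low cells. The 10 leukocyte markers summed to 133.52 counts in CD44 high and 65.62 in CD44 low cells, of which CD68, a lysosomal protein gene with fractional counts, gave 122.52 and 58.62, while PTPRC, the pan-leukocyte CD45, had 0 and 1. The 10 fibroblast and endothelial markers summed to 194 counts in CD44 high and 321 in CD44 low cells, nearly all from COL1A1. The part of these and of the lower squamous markers in the EPOR ratio was not tested.

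The transcripts to which the EPOR reads were assigned differed between the fractions. EPOR-201 (ENST00000222139.10), which encodes the full receptor of 508 codons, received 79.23 expected counts in CD44 high cells, against 0 in CD44 low cells, or 2.37 TPM against 0 TPM. EPOR-208, a coding transcript of 328 codons, was at 0.29 TPM in CD44 high and 0.23 TPM in CD44 low cells. EPOR-206, which retains an intron and encodes no protein, was at 1.67 TPM in CD44 high and 0 TPM in CD44 low cells. EPOR-204, which is annotated as a target of nonsense-mediated decay, the pathway that destroys mRNAs with an early stop, showed the reverse, with 0 TPM in CD44 high and 0.73 TPM in CD44 low cells.

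As shares of the EPOR counts, the 2 coding transcripts held 79.1% (87 of 110, exact interval 70.3 to 86.3%) in CD44 high cells, against 25.9% (7 of 27, 11.1 to 46.3%) in CD44 low cells. EPOR-201 alone held 71.8% (62.4 to 80.0%) in CD44 high cells, against 0 of 27 counts in CD44 low cells (exact interval 0 to 12.8%, and a share of up to 11.1% by the limit of 3 counts). The decay transcripts held 4.55% (1.49 to 10.3%) in CD44 high cells, against 74.1% (53.7 to 88.9%) in CD44 low cells. These shares rest on how the quantification program divided reads that fit several transcripts, and in CD44 low cells on 27 counts, and the intervals do not cover that division. By TPM, the coding share was 58.6% in CD44 high and 24% in CD44 low cells, a scale on which the short retained-intron transcript weighs more.

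**Figure D3:**
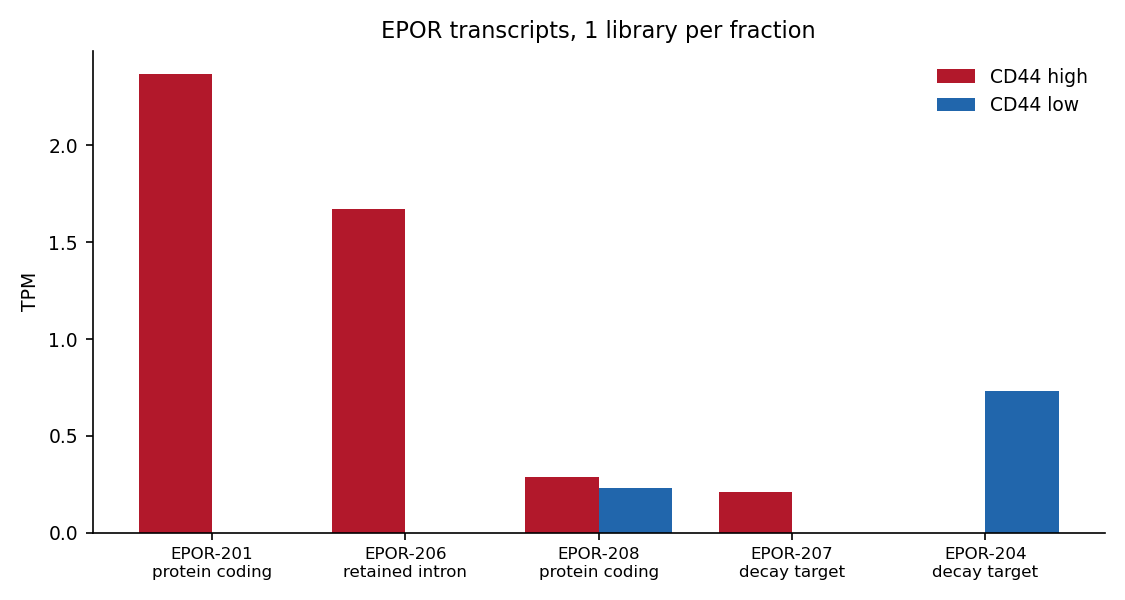
TPM of the 5 EPOR transcripts above 0, CD44 high (red, left) beside CD44 low (blue, right), with the annotated type under each name (decay target, nonsense-mediated decay). EPOR-201 stands at 2.37 TPM in CD44 high and 0 in CD44 low cells, EPOR-204 at 0 and 0.73 TPM, from 1 library each.

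The exon by which EPOR-204 departs from EPOR-201 is shown because EPOR-204 received most of the CD44 low counts. It lies at chr19:11382847-11382949 (GRCh38, minus strand, 103 bases, GENCODE release 44), inside an intron of EPOR-201, and EPOR-204 reads through only 119 codons.
EPOR-204 exon: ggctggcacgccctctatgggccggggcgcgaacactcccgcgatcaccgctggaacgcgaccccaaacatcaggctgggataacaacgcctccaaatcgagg

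The ligand of EPOR was close to absent. EPO had 1 count in CD44 high and 2 counts in CD44 low cells. Among 42 cytokine ligands of this pathway, 21 had 0 counts in both libraries and 31 had fewer than 20 counts in each. LIF, a gp130 cytokine that signals through JAK1 and STAT3, was the most counted, with 528 counts in CD44 high and 338 in CD44 low cells (ratio 1.56, 1.36 to 1.80). CLCF1, another ligand of the gp130 family, had 106 and 74 counts (1.43, 1.06 to 1.96). IFNL1, an interferon lambda, had 50 counts in CD44 high and 80 in CD44 low cells (0.626, 0.430 to 0.902). Of the 11 ligands that reached 20 counts, 2 were higher and 5 lower beyond counting error, beside 32.4% and 31.0% of all genes with at least 50 counts. None of the 4 ligands with at least 50 counts met the 2-fold rule.

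Other receptors of the EPOR class were mostly silent, 13 of the 20 on the list having fewer than 20 counts. PRLR, the prolactin receptor, which also pairs with itself and uses JAK2 and STAT5, had 78 counts in CD44 high and 20 in CD44 low cells (ratio 3.90, 2.36 to 6.74). PRLR was the only receptor of this list that met the 2-fold rule. LEPR, the leptin receptor, had 740.82 and 527.26 counts (1.41, 1.26 to 1.58). IL4R and IL13RA1, which bind interleukin 4 and interleukin 13 and act through STAT6, had ratios of 0.769 and 0.845. CRLF2, the receptor for TSLP, had 36 counts in CD44 high and 7 in CD44 low cells, under the count minimum.

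Proteins proposed to bind EPO in place of paired EPOR were also measured. CSF2RB, the common beta chain, had 0 counts in CD44 high and 4 in CD44 low cells. EPHB4, an ephrin receptor, had 73.3 TPM in CD44 high and 73.2 TPM in CD44 low cells, a ratio in scaled counts of 0.975 (0.930 to 1.02), so EPHB4 was within counting error. Of 13 measured EPOR partners, 4 were higher and 4 lower beyond counting error, beside 32.4% and 31.0% of all genes with at least 50 counts. None of the 13 met the 2-fold rule. The largest counts were those of TFRC, the transferrin receptor that feeds iron to growing cells, with 11349 in CD44 high and 9736 in CD44 low cells.

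The shared receptors of the STAT3 arm were abundant. IL6ST had 43.4 TPM in CD44 high and 35.6 TPM in CD44 low cells, yet its counts gave a ratio of 0.874 (0.840 to 0.910). OSMR, the oncostatin M receptor, had 2826 counts in CD44 high and 2474 in CD44 low cells, and LIFR, the LIF receptor, 2535 and 2489. Of 9 class II receptors with at least 20 counts, which include those for interferons, 3 were lower beyond counting error and none higher. Of all genes with at least 50 counts, 31.0% were lower and 32.4% higher. The median log2 ratio of the 9 receptors was -0.38.

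JAK2, the kinase that EPOR carries, had 271 counts in CD44 high and 261 in CD44 low cells, or 3.66 TPM against 3.05 TPM. Its ratio was 1.04 (0.874 to 1.24), an interval that reaches 1.24-fold higher and 1.14-fold lower. EPOR, with all its transcripts, stood at 1.24 times the TPM of JAK2 in CD44 high cells and at 0.311 times in CD44 low cells. Of the EPOR level in CD44 high cells, 1.67 TPM came from the noncoding EPOR-206. The coding EPOR transcripts alone were at 2.66 TPM in CD44 high and 0.23 TPM in CD44 low cells, below JAK2 in both. JAK2 (ENSG00000096968.12, chromosome 9, 4985033 to 5128183, plus strand) spans 12 annotated pseudogenes, each with at most 4 counts in a library.

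JAK1 (ENSG00000162434.11, chromosome 1, 64833229 to 64966504, minus strand) and TYK2 (ENSG00000105397.13, chromosome 19, 10350529 to 10380676, minus strand) were the abundant kinases of the family. JAK1 had 3254 counts in CD44 high and 3582 in CD44 low cells, a ratio of 0.909 (0.867 to 0.954), and 49.1 TPM against 50.8 TPM. TYK2 had 994 counts in CD44 high and 844 in CD44 low cells, a ratio of 1.18 (1.07 to 1.29), and 54.6 TPM against 47.4 TPM. With TPM recomputed without mitochondrial genes, the TYK2 log2 ratio was -0.03 in place of 0.24. TYK2 was thus first in TPM in CD44 high cells and JAK1 first in CD44 low cells, with no spread between libraries to judge that order by. The order holds for TPM only, since JAK1 had more counts than TYK2 in both libraries. In CD44 high cells the TYK2 transcript ENST00000525976.5 gave 14.03 TPM from 63.31 counts, while ENST00000525621.5 gave 10.73 TPM from 673.5 counts. The TYK2 ratio fell between the housekeeping ratios of TBP (1.04) and HPRT1 (1.25). Of the TPM of the JAK family, JAK1 held 45.7%, TYK2 50.8% and JAK2 3.4% in CD44 high cells, against 50.1%, 46.8% and 3.01% in CD44 low cells. JAK3, the kinase of lymphocyte receptors, had 11 and 15 counts.

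At the transcript level, TYK2 was less even than as a gene. ENST00000525621.5 had 673.5 counts in CD44 high and 454.31 in CD44 low cells (ratio 1.48, 1.31 to 1.67). ENST00000264818.10, whose 3′ end lies within a few bases of it, had 4.44 and 123.49 counts. Their sum was 677.94 counts in CD44 high and 577.8 in CD44 low cells, a ratio of 1.17 (1.04 to 1.31), close to that of the gene. The reads were thus divided between these long transcripts in another way in each library, and the division itself was not tested. JAK1 had no such split, JAK1-201 holding 99.6% of its counts in both fractions.

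STAT5B (ENSG00000173757.9, chromosome 17, 42199168 to 42276707, minus strand) carried nearly all of the STAT5 counts. It had 1048.89 counts in CD44 high and 1084.92 in CD44 low cells, a ratio of 0.968 (0.888 to 1.05), and 17.4 TPM against 17.0 TPM. STAT5A (ENSG00000126561.16, chromosome 17, 42287547 to 42311943, plus strand) had 3.11 counts in CD44 high and 4.08 in CD44 low cells and held 0.515% and 0.469% of the TPM of both STAT5 genes. The fractional counts of STAT5A and STAT5B show that some reads were shared, as can happen between close paralogs, so the low level of STAT5A is uncertain at the scale of a few counts. STAT5A and STAT5B lie side by side on chromosome 17, 10839 bases apart, with STAT3 1380 bases beyond STAT5A.

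STAT3 (ENSG00000168610.14, chromosome 17, 42313324 to 42388568, minus strand), the factor of the gp130 receptors, had 3615 counts in CD44 high and 3957 in CD44 low cells, a ratio of 0.915 (0.874 to 0.957). In TPM it was at 60.3 in CD44 high and 59.1 in CD44 low cells, so the direction of STAT3 differed between the scales. The size of the difference was small on both. The scales also differ for genes at large. The median log2 ratio of all genes was 0.01 in counts and 0.15 with log2(TPM + 1). STAT3, at -0.13 and 0.029, lay below that median on both scales. The STAT3 share of the TPM of all 7 STAT genes was 24.6% in CD44 high and 24.4% in CD44 low cells. STAT2, a factor of the type I interferon response, had the lowest ratio of the STAT genes measured, with 796 counts in CD44 high and 1119 in CD44 low cells (ratio 0.712, 0.649 to 0.781).

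STAT3-211, a coding transcript of 722 codons that corresponds to the beta form without the activation domain of the C-terminus, had 143.65 counts in CD44 high and 186.67 in CD44 low cells. It made up 4.16% (exact interval 3.52 to 4.88%) of the counts of the 3 main coding transcripts in CD44 high cells, against 4.9% (4.23 to 5.63%) in CD44 low cells. These intervals overlap. ENST00000264657.9 held most STAT3 counts, 3093.67 in CD44 high and 3447.96 in CD44 low cells.

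**Figure D4:**
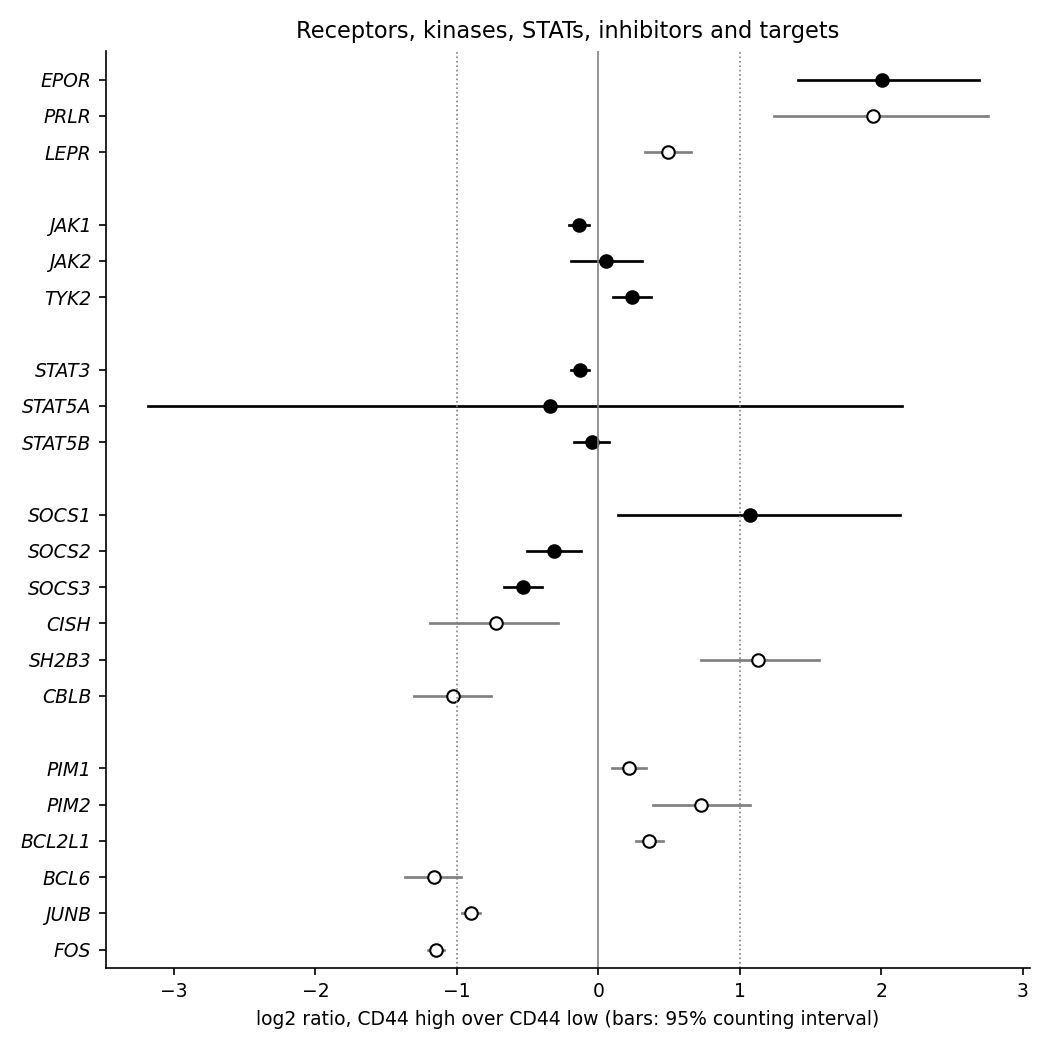
Ratio on the log2 scale, CD44 high over CD44 low, with 95% counting intervals for the 10 genes (filled) and other genes of the pathway (open), grouped from receptors at the top through kinases, STATs and inhibitors to targets, with dotted lines at 2-fold. EPOR (2.01) and PRLR (1.94) lie to the right, BCL6 (-1.17) and FOS (-1.15) to the left, and the interval of STAT5A, with 3.11 and 4.08 counts, spans most of the axis.

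SOCS2 and SOCS3 were lower beyond counting error, while SOCS1, under the count minimum and lying inside another gene, was higher. SOCS3 (ENSG00000184557.4, chromosome 17, 78356778 to 78360077, minus strand), which blocks JAK kinases at gp130 receptors and at EPOR, had 793 counts in CD44 high and 1148 in CD44 low cells, or 20.7 TPM against 27.0 TPM. SOCS3 was 1.45-fold lower (1.32 to 1.58), the lowest ratio of the 10 genes. SOCS2 (ENSG00000120833.13, chromosome 12, 93569814 to 93583487, plus strand), best known as the brake of the growth hormone receptor, had 412 counts in CD44 high and 512 in CD44 low cells, 1.24-fold lower (1.09 to 1.42). SOCS1, a direct inhibitor of JAK kinase activity, had 30 counts in CD44 high and 14 in CD44 low cells, or 1.93 TPM against 0.81 TPM. Its ratio was 2.15 with an interval of 1.10 to 4.38, and with fewer than 50 counts in each library it was left out of the 2-fold count.

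CISH, the classical STAT5-induced inhibitor whose start window is printed above, had 68 counts in CD44 high and 113 in CD44 low cells, 1.66-fold lower (1.22 to 2.28). Together CISH, SOCS1, SOCS2 and SOCS3 held 37.7% of the TPM of the CISH and SOCS family in CD44 high cells, against 45.2% in CD44 low cells. The remainder came from SOCS4 to SOCS7, whose ratios were all within counting error. SOCS3 was the first and SOCS2 the second of the 4 in TPM in both fractions, at 20.7 and 18.3 TPM in CD44 high and 27.0 and 20.2 TPM in CD44 low cells.

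Some SOCS genes share their position with others. SOCS1 (ENSG00000185338.4, chromosome 16, 11254405 to 11256179, minus strand) lies wholly inside RMI2, a DNA repair gene of the other strand, which had 1000 counts in CD44 high and 1062 in CD44 low cells (ratio 0.943, 0.864 to 1.03). SOCS2 is overlapped over 1955 bases by its antisense gene SOCS2-AS1, with 28 counts in CD44 high and 43 in CD44 low cells. The sources used here do not say whether counting was by strand, so reads of the overlapping parts cannot be told apart. SOCS2-207 was the most counted SOCS2 transcript, with 186.64 counts in CD44 high and 271.95 in CD44 low cells (0.683, 0.565 to 0.828).

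Inhibitors outside the SOCS family included the other 2-fold calls near JAK2. SH2B3, the adaptor LNK, which restrains JAK2 behind EPOR and the thrombopoietin receptor, had 156 counts in CD44 high and 71 in CD44 low cells (ratio 2.20, 1.65 to 2.95). CBLB, a ubiquitin ligase that marks activated receptors for breakdown, had 165 counts in CD44 high and 337 in CD44 low cells, 2.04-fold lower (1.69 to 2.47). Of the 10 measured PIAS and phosphatase genes, 3 were higher and 3 lower beyond counting error, beside 32.4% and 31.0% of all genes. None of the 10 met the 2-fold rule. PTPN11, the phosphatase SHP2, had 6968.99 counts in CD44 high and 6666.99 in CD44 low cells.

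In all, the lists of ligands, receptors, kinases, STATs and inhibitors held 110 genes besides the 10, and 48 of them reached 50 counts. The separate list of EPOR partners was left out of this pool. PRLR and SH2B3 met the 2-fold rule as higher, 4.17% of the 48 beside 1.24% of all genes, but this is a count of 2, and PRLR, like EPOR, reached 50 counts only in CD44 high cells. The share that met it as lower, CBLB included, was also 4.17%, beside 4.21% of all genes. Their median log2 ratio was -0.03.

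**Figure D5:**
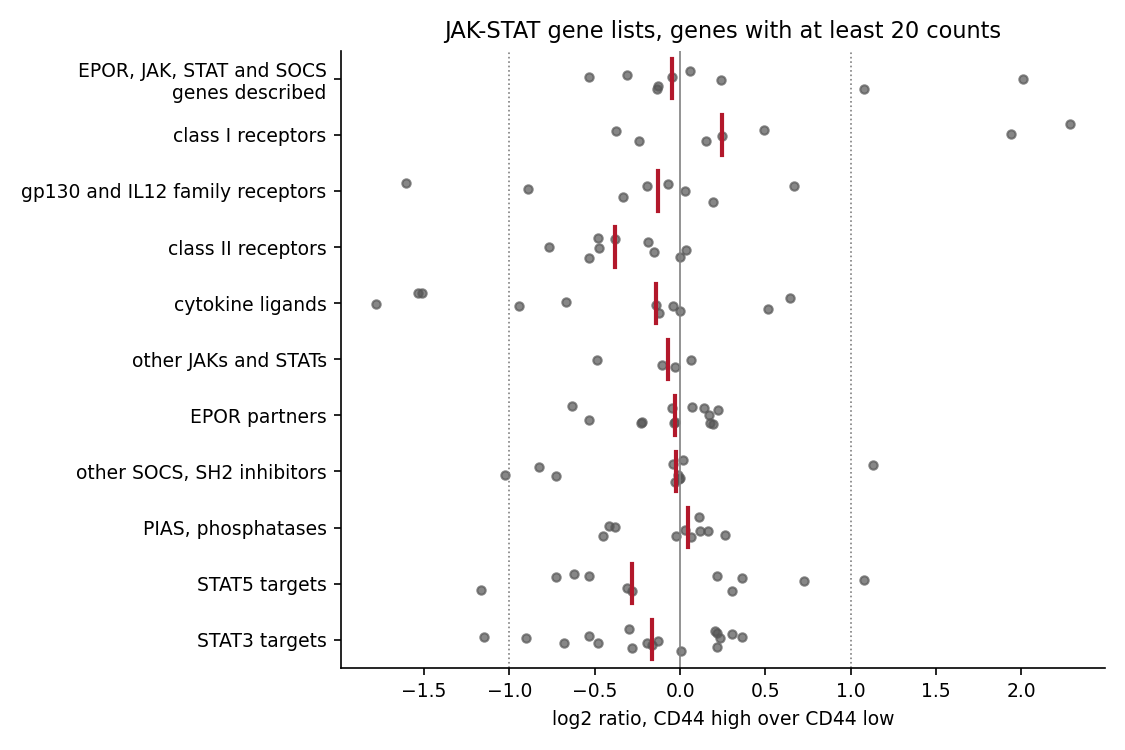
Ratio on the log2 scale, CD44 high over CD44 low, for genes of each list that reached 20 counts in either library (points, scattered vertically for sight only), with the list median in red and dotted lines at 2-fold. Among the lists plotted, medians lie between -0.38 for class II receptors and 0.24 for class I receptors, and the points at the right edge are CRLF2, EPOR and PRLR.

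STAT5 target genes, from a list that includes SOCS1, SOCS2, SOCS3 and CISH, did not share a direction. Of 15 listed, 11 were measured, 5 of them higher and 6 lower beyond counting error, beside 32.4% and 31.0% of all genes. Their median log2 ratio was -0.28. The list does not separate genes that STAT5 raises from genes that it lowers. Neither this median nor the direction of a single target, BCL6 included, was therefore read as STAT5 activity. BCL6, a repressor whose start window is printed above, had 307 counts in CD44 high and 690 in CD44 low cells, 2.25-fold lower (1.96 to 2.58), and was the 1 that met the 2-fold rule. PIM1, a survival kinase, had a ratio of 1.16 (1.07 to 1.26), PIM2 one of 1.65 (1.31 to 2.10), and BCL2L1, which encodes the survival protein BCL-XL, one of 1.28 (1.20 to 1.37). MCL1, the survival gene of the list with the most counts, had 14816 in CD44 high and 18037 in CD44 low cells (0.822, 0.805 to 0.840). CISH, SOCS2, SOCS3 and MCL1 were lower, while SOCS1, PIM1, PIM2 and BCL2L1 were higher beyond counting error.

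Of 25 STAT3 target genes, a list that shares SOCS3, PIM1, BCL2L1 and others with the STAT5 list, 17 were measured. Beyond counting error, 6 of these were higher and 10 lower, beside 32.4% and 31.0% of all genes, and their median log2 ratio was -0.17. FOS, an immediate early gene, had 3337 counts in CD44 high and 7409 in CD44 low cells, 2.22-fold lower (2.13 to 2.31), the 1 that met the 2-fold rule. JUNB, its partner, had a ratio of 0.535 (0.512 to 0.559) and MYC one of 0.623 (0.591 to 0.657). Among the higher ones, CCND1, a cyclin of the G1 phase, had a ratio of 1.18 (1.14 to 1.21) and BIRC5, which encodes survivin, one of 1.23 (1.18 to 1.29). These target genes answer to many other pathways, and no protein or phosphorylation was measured.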

How the data were processed

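The authors sorted the cells, prepared poly(A) libraries, mapped reads to GRCh38 and quantified genes and transcripts with RSEM, per the methods of the study. The sources used here do not say whether counting used strand or molecular identifiers. The deposited values are expected counts divided by a size factor, and TPM. The authors' comparison columns, a fold change and an FDR, were not used. The size factor was taken out again, giving expected counts in steps of 0.01, of which 82.9% (CD44 high) and 83.8% (CD44 low) of the values above 0 were whole. Rows of 50 pseudoautosomal copies were added to their X chromosome genes.

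Counts were scaled by median-of-ratios factors, and log2 ratios used a prior count of 0.5. Intervals are exact conditional binomial (Clopper-Pearson) at 95%, on counts rounded to whole numbers. Scripts were tested on simulated data. Transcript types came from GENCODE release 44 where both ends agreed within 50 bases. Genes of a list were called measured where at least 20 counts were present in a library. Shares of all genes are over those with at least 50 counts in either library. Alternatives were TMM factors (edgeR 4.0.16, R 4.3.3), total counts, TPM scales and other minimums. Python 3.11.15 with numpy 2.4.6, scipy 1.17.1 and pandas 2.3.3 was used.

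The 10 genes and all lists were chosen with earlier results of these data known. Named from each list are at most 4 genes that met the 2-fold rule, by size of ratio, or else at most 2 by counts, plus receptors and ligands with at least 50 counts and genome neighbours. EPO, CRLF2, CSF2RB, EPHB4, JAK3, STAT2, CISH, PTPRC, CD68, SOCS4 to SOCS7, GATA1, ALAS2, HBB, KRT5, EPCAM, CDH1, PGK1, HPRT1, TBP, PIM1, PIM2, BCL2L1, MCL1, JUNB, MYC, CCND1, BIRC5 and ENST00000264818.10 were named after their values had been seen. Some genes picked by this rule are not reported here.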

Additional observations from a re-analysis of the deposited data

How the results depend on the processing

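The EPOR log2 ratio, 2.01, ranged from 1.46 with TPM without mitochondrial genes to 2.14 with log2(TPM + 0.1) over the alternatives. The count of the 10 genes at least 2-fold higher was 2 with log2(TPM + 0.1), with a minimum of 10 counts and with no filter, where SOCS1 joined EPOR, and 0 with a minimum of 200 counts, which leaves EPOR out. Their median log2 ratio, -0.09, was 0.033 with log2(TPM + 1) and 0.034 with log2(TPM + 0.1), and -0.19 with TPM without mitochondrial genes, where the median of all genes was 0.15, 0.17 and -0.07. STAT3, at -0.13, turned to 0.029 with log2(TPM + 1) and to 0.029 with log2(TPM + 0.1), and TYK2, at 0.24, to -0.032 with TPM without mitochondrial genes. Beyond counting error, 1 gene was higher with a minimum of 200 counts and 2 were lower with total counts. TPM gives no such interval and no value there.

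Over all genes, 153 were at least 2-fold higher and 520 lower. With log2(TPM + 1) 435 were higher. With log2(TPM + 0.1) 795 were higher and 870 lower, and with TPM without mitochondrial genes 386 and 876. A minimum of 10 counts gave 363 and 1073, one of 200 counts 63 and 232, no filter 444 and 1229, and a 1.5-fold rule 609 and 1291. Higher calls were 22.7% of all calls, against 47% and 47.7% on the TPM scales with a constant of 1 and of 0.1. The causes of these differences on the TPM scales were not tested. No paired analysis was possible because each fraction has 1 library. Depth limits EPOR, SOCS1 and STAT5A most, at 27, 14 and 4.08 counts in CD44 low cells.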
